A study of Mus musculus with 13 samples.

Results

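The replication-dependent histone genes of 4T1 cells, a line from a spontaneous mammary tumor of a BALB/cJ mouse, were followed through 6 ChIP-seq peak lists. Members were all genes whose symbol starts with Hist1h, Hist2h, Hist3h or Hist4h, and 60 of the 18562 genes in the lists met this rule. Of these, 46 were in the Hist1 cluster of chromosome 13, 10 in Hist2 on chromosome 3, 3 in Hist3 on chromosome 11 and 1 in Hist4 on chromosome 6. By family they belong to linker histone H1 (6 genes) and the core histones H2A (15), H2B (16), H3 (12) and H4 (11). Among the H2B members, Hist3h2bb-ps is a transcribed pseudogene in RefSeq. H3K4me3 and H3K27me3 were profiled in cells with a non-targeting guide RNA (sg-Ctrl) and in 1 CRISPR/Cas9 Nup210 knockout clone (Nup210 KO), and NUP210 and an antibody to nuclear pore proteins (NPC) in sg-Ctrl cells alone. All cells were 4T1 of the same mouse strain, cultured without further treatment. Each condition had 1 library, so no difference between sg-Ctrl and KO cells could be tested over replicates, and a difference between the clone and the control line cannot be told apart from one due to the knockout. Intervals are 95% and cover counting error alone.

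Replication-dependent histone genes supply the nucleosomes that package newly copied DNA, and they are transcribed mainly in S phase. Most have no introns, and their mRNAs end in a conserved stem-loop, bound by SLBP, in place of a poly(A) tail. The genes are gathered in clusters, where the coactivator NPAT marks a nuclear body, the histone locus body, and H2A and H2B genes often stand head to head over a shared promoter. H3K4me3 marks the starts of active genes and H3K27me3 is the repressive mark of Polycomb complexes. NUP210 is a membrane-spanning protein of the nuclear pore.

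Hist1 was split by a gap of 1488 kb into a first block of 17 members over 327 kb and a second block of 29 members over 233 kb. Hist2 spanned 49.8 kb and Hist3 5.77 kb. Because neighbouring members share peaks, the 86 entries of members in the sg-Ctrl H3K4me3 list were 31 distinct peaks, and the 84 entries in the KO list were 29. Peaks of both lists that overlapped were joined into 28 regions (Hist1 16, Hist2 7, Hist3 3, Hist4 2) of 11133 over the genome. Of the 28, 21 had a peak over the start of at least 1 member, 16 of them over the starts of 2 or more, and 15 over members of more than 1 histone family. A value of H3K4me3 therefore belongs to a region and its genes together. The other 7 regions lay in the 4 kb window beside a member's start, and among them the region shared with Trim17 and the second of 2 regions shared with H2afj were listed for those genes too.

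The sequences of the members show what the regions hold. Promoters from the RefSeq table (GRCm38.p6, 250 bases before to 50 after the start) were matched for 54 members. The head-to-head promoter of Hist1h2bk (H2B) and Hist1h2ah (H2A) is given as an example of a shared start, that of Hist1h4h (H4) from the region with the highest KO over sg-Ctrl ratio, that of Hist2h2aa1 (H2A) from the duplicated genes with the lowest ratios, and that of Hist3h2ba (H2B) as the promoter of the lone member with an H3K27me3 peak. Capitals mark the box CCAAT known from many promoters, the TATA box letters TATAAA, and ATTTGCAT, the octamer bound by POU2F1, on either strand. The positions are chr13:22035571-22035870, chr13:23530794-23531093, chr3:96245247-96245546 and chr11:58948661-58948960, all on the plus strand.
Hist1h2bk: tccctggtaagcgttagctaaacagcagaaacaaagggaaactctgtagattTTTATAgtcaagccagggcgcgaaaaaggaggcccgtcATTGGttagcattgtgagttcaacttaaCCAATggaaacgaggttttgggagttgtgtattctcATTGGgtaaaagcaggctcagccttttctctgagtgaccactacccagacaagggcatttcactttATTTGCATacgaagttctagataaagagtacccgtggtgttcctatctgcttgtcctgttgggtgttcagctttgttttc
Hist1h4h: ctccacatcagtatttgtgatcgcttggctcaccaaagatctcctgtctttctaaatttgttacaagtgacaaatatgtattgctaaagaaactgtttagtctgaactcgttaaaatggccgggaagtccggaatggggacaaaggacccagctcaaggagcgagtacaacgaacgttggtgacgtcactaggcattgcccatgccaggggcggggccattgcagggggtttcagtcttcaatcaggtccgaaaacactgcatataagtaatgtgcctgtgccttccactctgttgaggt
Hist2h2aa1: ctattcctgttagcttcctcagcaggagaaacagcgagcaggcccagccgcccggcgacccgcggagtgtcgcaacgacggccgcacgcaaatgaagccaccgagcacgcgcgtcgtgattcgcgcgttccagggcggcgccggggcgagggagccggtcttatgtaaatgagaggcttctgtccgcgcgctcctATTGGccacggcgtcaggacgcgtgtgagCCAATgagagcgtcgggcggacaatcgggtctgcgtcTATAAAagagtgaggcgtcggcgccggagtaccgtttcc
Hist3h2ba: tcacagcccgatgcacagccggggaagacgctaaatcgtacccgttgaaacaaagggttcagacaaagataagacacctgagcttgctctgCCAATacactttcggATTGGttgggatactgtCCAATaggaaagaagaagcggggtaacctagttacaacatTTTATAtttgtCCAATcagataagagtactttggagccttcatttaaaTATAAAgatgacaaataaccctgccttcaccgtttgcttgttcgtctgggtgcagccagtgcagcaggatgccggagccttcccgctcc

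CCAAT was in 47 of the 54 member promoters (87.0%) and in 37.8% of the 26971 other promoters of the table, searched on both strands. It was in all 6 H1, 15 H2A, 13 H2B and 10 H3 promoters with a sequence, and in 3 of 10 H4 promoters. TATAAA was in 31 member promoters (57.4%) and 14.1% of the others. ATTTGCAT was in 11 member promoters (20.4%), of which 6 were of H2A and 5 of H2B genes, and in 1.72% of the others. None of these motifs contains another, partial overlaps were allowed, and a match is a description of the window only.

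The H3 genes fall into the kinds H3.1 and H3.2, which differ at residue 96, counted without the first methionine. The 30 coding bases around this codon, from the GENCODE transcripts, are shown for 1 gene of each kind and for H3f3b, a gene of the replication-independent variant H3.3, with the codon in capitals.
Hist1h3g: ctgcaggaggccTGTgaggcctacctcgtg
Hist1h3d: ctgcaggaggcgAGCgaggcctacctcgtg
H3f3b: cttcaggaggctAGCgaagcatacctggtg
Of the 11 H3 members with a transcript, Hist1h3a, Hist1h3g, Hist1h3h and Hist1h3i carried the cysteine codon TGT (H3.1) and 7 the serine codon AGC (H3.2). The KO over sg-Ctrl H3K4me3 ratios of the regions over the starts of the 4 H3.1 genes were -0.73 to 0.67 on the log2 scale, and those of the 6 H3.2 genes with a region over the start were -0.98 to -0.51. Genes in one region share its value.

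The histone stem-loop was found within 100 bases after the stop codon in 43 of the 47 members whose GENCODE transcript reaches at least 40 bases past it. Of 22527 other genes with a coding transcript, 2 had it there, and 1 of these was H2afx, a variant H2A gene. The 16 bases began 22 to 59 bases after the end of the coding sequence. The form of Hist1h2ah was found in 28 members, and that of Hist1h4h in 4 members, all of them H4 genes. Capitals mark the arms of the stem.
Hist1h2ah: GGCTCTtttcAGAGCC
Hist1h4h: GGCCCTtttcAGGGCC
Hist1h3g: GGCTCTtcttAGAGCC
The 4 without a match were Hist1h2ak, whose transcript ends 40 bases past the stop codon, and the H2B genes Hist1h2bc, Hist2h2bb and Hist2h2be, whose transcripts reach 322, 1117 and 2192 bases past the stop codon.

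Every member was listed with H3K4me3 in both lists, against 67.1% of all genes of the lists in sg-Ctrl and 67% in KO. This was nearly fixed by the choice of members from the lists, since 59 of the 60 were in no list but those of H3K4me3, and nothing is read from it. The start itself lay inside a peak for 55 members in sg-Ctrl and for 53 in KO cells. The members without a peak over the start in either list were Hist1h1a, Hist1h1t, a linker histone of the testis, Hist2h3c1, Hist2h3c2 and Hist3h2ba. Hist2h2aa1 and Hist2h2aa2 had a peak over a start in sg-Ctrl and not in KO cells. All histone peaks were well above IgG, with a lowest fold of 13.1 in sg-Ctrl and 4.22 in KO cells.

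Reads were scaled by the ChIP to IgG library size ratio, which was 1.06 for sg-Ctrl and 1.35 for KO. Histone regions were broad and of moderate density. Their median width was 5800 bp in sg-Ctrl, against 3400 bp over all 10538 regions in both lists, and 9 of the 28 were in the widest 5% of all regions (7600 bp or more). Median sg-Ctrl density was 340 scaled reads per kb, against 510 over all regions, and 21 of the 28 were below that median. In KO cells the medians were 212 for the histone regions and 362 for all. The densest histone region in sg-Ctrl was that of Hist3h2a (H2A) and Hist3h2bb-ps at 731 scaled reads per kb, and in KO cells that of Hist1h4h, Hist1h2af and Hist1h3g at 532.

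**Figure D1:**
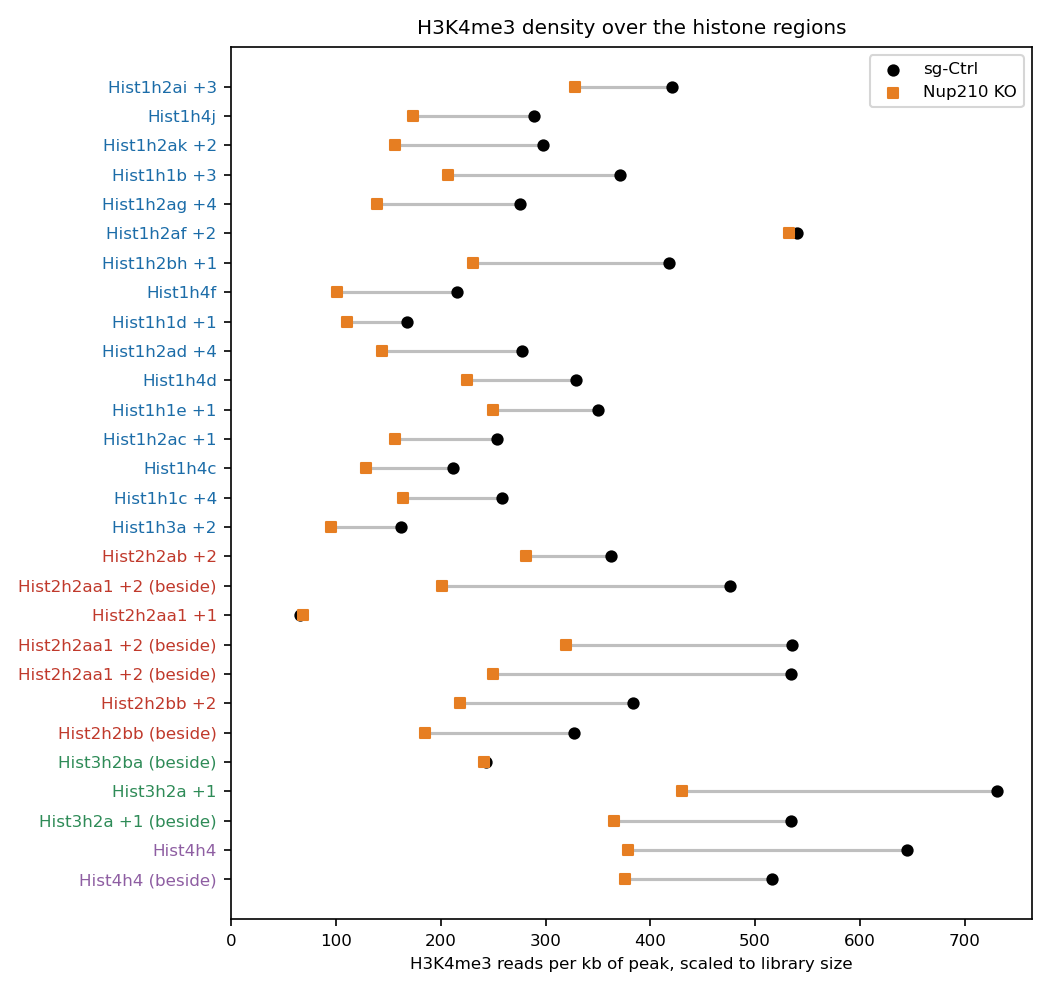
H3K4me3 density of the 28 histone regions in sg-Ctrl (black circles) and Nup210 KO (orange squares), in reads per kb of peak scaled to library size, with 1 row per region named by a member (+n, further members; beside, no member start inside) and coloured by cluster. In most rows the KO square lies to the left of the sg-Ctrl circle, and for Hist1h2af with Hist1h3g and Hist1h4h the values were 540 and 532.

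H3K4me3 was lower in KO than in sg-Ctrl cells over 27 of the 28 histone regions. The median log2 ratio was -0.74, a ratio of 0.599, against -0.32 over all regions, of which 77.2% were below 0. Under this scaling most regions of the genome were thus lower in KO, and 25 of the 28 histone regions lay below the median of all. At least 1.5-fold lower were 19 histone regions (67.9%), against 27.5% of all regions. At 2-fold or more, 5 histone regions (17.9%) were lower, against 7.9% of all. Without the regions of the duplicated Hist2 genes it was 1 of 24 (4.17%), below the share of all regions. With no scaling 2 of the 28 were 2-fold lower, and the share of all regions in that setting is not given. Relative to the median of all regions 3 of the 28 (10.7%) were, against 2.63% of all. None was 2-fold higher (1.58% of all), and 1 was at least 1.5-fold higher (3.57%, against 3.96% of all). With no scaling, or scaled by the reads of regions shared by both lists, the median of all regions was 0.02 or 0.10, and that of the histone regions -0.39 or -0.32. The distance between them was -0.41 in each case. With reads divided by the length of the peaks it was -0.25, with medians of -0.74 and -0.49, and 21 of the 28 histone regions lay below the median of all.

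**Figure D2:**
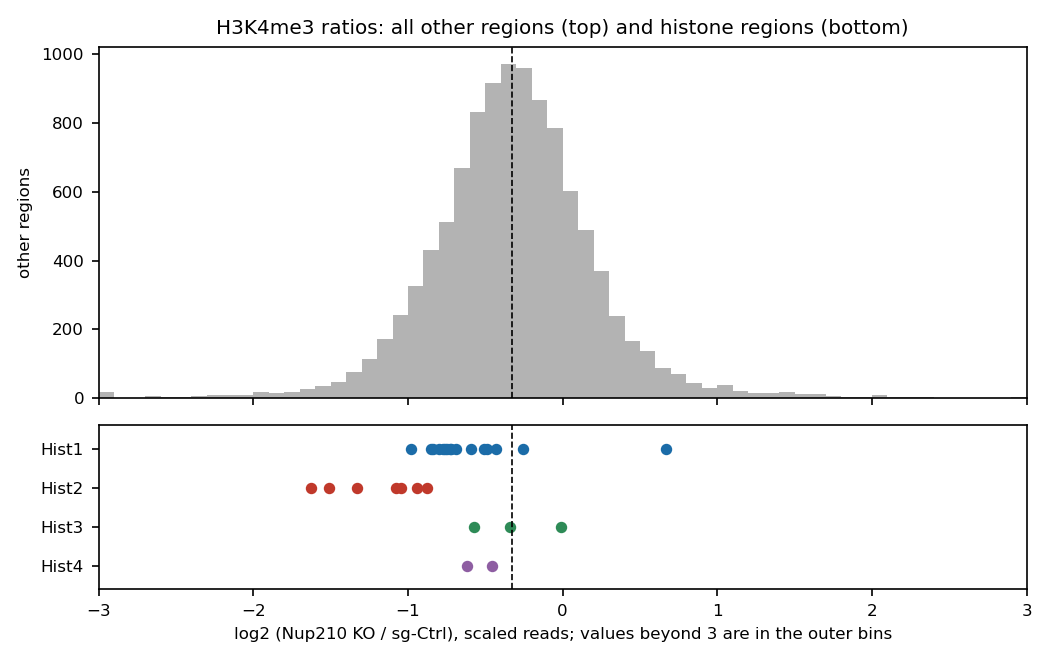
Log2 KO over sg-Ctrl ratios of scaled H3K4me3 reads, as a histogram of all other regions (top) and as points for the histone regions by cluster (bottom), with the median of all regions (-0.32) dashed. The 7 Hist2 regions lie between -1.63 and -0.87, and of the Hist1 regions 14 of 16 lie left of the dashed line.

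The ratio of the other regions differed with width and with density. The histone regions were alike by width and ran the opposite way by density. The part of width and density in the histone ratios was not tested. Among other regions with a mean width of at least 7 kb the median log2 ratio was -0.54 (763 regions), against -0.72 for the 10 histone regions of that width. Below 7 kb it was -0.30 for 9747 other regions and -0.75 for 18 histone regions. Below 400 scaled reads per kb the medians were -0.19 for 4491 other regions and -0.77 for 22 histone regions. At 400 or more they were closer, -0.39 for 6019 other regions and -0.52 for 6 histone regions, of which 29.6% and 33.3% were at least 1.5-fold lower. Other regions listed for 3 or more genes, which like the histone regions serve closely packed starts, had a median of -0.36 (220 regions), against -0.76 for the 17 such histone regions. These sets were not matched. Their median sg-Ctrl widths were 4800 bp and 8800 bp, and their densities 587 and 371 scaled reads per kb. Chromosome medians ranged from -0.82 on chromosome 4 to 0.14 on chromosome 8, while those of the other regions on chromosomes 13, 3, 11 and 6 were -0.30, -0.37, -0.29 and -0.47.

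Hist2 had the lowest ratios of summed reads. Its 7 regions had a median of -1.08, a ratio of 0.474. All were at least 1.5-fold lower (27.5% of all regions), and 5 were 2-fold or more lower (7.9% of all regions). None of the 16 Hist1 regions was 2-fold lower, against the same 7.9%. Of the 5, 4 were regions of duplicated genes, described below. Per kb of peak the clusters were closer, with medians of -0.81 for Hist2 and -0.73 for Hist1, and 2 Hist2 regions and 1 Hist1 region were 2-fold lower (9.68% of all regions). Of the 7, 6 were narrower in KO, with a covered length of 28.8 kb in sg-Ctrl and 22.8 kb in KO, whereas 27.3% of all regions were narrower in KO. Of the other regions on chromosome 3, 5.59% had a ratio at or below the Hist2 median.

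The region over Hist2h2ab, Hist2h2ac and Hist2h2be, an H2A and H2B group, held 2768 sg-Ctrl and 1666 KO reads. Its ratio was -1.08 (-1.17 to -0.99), and its covered length was 7.2 kb in sg-Ctrl and 4.4 kb in KO. KO reads outside the shorter KO peak are not in this ratio, and per kb of peak it was -0.37. The region over Hist2h2bb, Hist2h3b and Hist2h4 held 3823 and 2648 reads, with a ratio of -0.87 (-0.95 to -0.80). The region beside Hist2h2bb held 903 and 598 reads, with a ratio of -0.94 (-1.09 to -0.79). These 3 regions hold genes of all core histone families. Which of the first and the second is lower depends on the measure, since their ratios of reads per kb were -0.37 and -0.81.

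The other 4 Hist2 regions belong to Hist2h2aa1, Hist2h2aa2, Hist2h3c1 and Hist2h3c2, which stand as an inverted duplicate. The region that covers starts of Hist2h2aa1 and Hist2h2aa2 held 180 sg-Ctrl and 74 KO reads. Its ratio of -1.63 (-2.04 to -1.23) was the lowest of the 28 histone regions, and 1.29% of all regions were below it. KO reads outside the shorter KO peak are not in this ratio. Per kb of peak it was 0.07, the highest of the 28. The 3 regions beside these genes held 1414 and 869, 1022 and 516, and 1361 and 606 reads, with ratios of -1.05, -1.33 and -1.51. Density in the first of them was 476 and 202 scaled reads per kb for sg-Ctrl and KO, while the region over the starts had 65.3 and 68.6, with a covered length of 2.6 kb and 0.8 kb. The starts of Hist2h3c1 and Hist2h3c2 lay in gaps between these peaks. The second listed starts of Hist2h2aa1 and Hist2h2aa2, whose promoter is shown above, lay just past the end of the region with 1022 and 516 reads.

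The genes of these 4 regions share copies of sequence. The promoters of Hist2h2aa1 and Hist2h2aa2 share an unbroken run of 219 bases and those of Hist2h3c1 and Hist2h3c2 one of 231 bases, and Hist2h2aa1 and Hist2h2aa2 have the same coding sequence. Reads from such copies cannot be told apart. Among the other 50 members with a promoter sequence the longest shared run was 72 bases, between Hist1h4j and Hist1h4k. Of 70 RefSeq genes with a symbol of this family, the 10 absent from the lists included Hist1h2bq, Hist1h2br, Hist1h2ao, Hist1h2ap, Hist1h4m and Hist1h4n, a block of 6 genes of Hist1 whose promoters share runs of 233 to 300 bases with another of the block. The rest were the testis genes Hist1h2aa and Hist1h2ba and 2 pseudogenes. How the authors treated reads with several positions was not given in the sources used here, and the part of such reads in these ratios was not tested. Without the 4 duplicated genes the Hist2 regions were 3, with a median of -0.94.

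**Figure D3:**
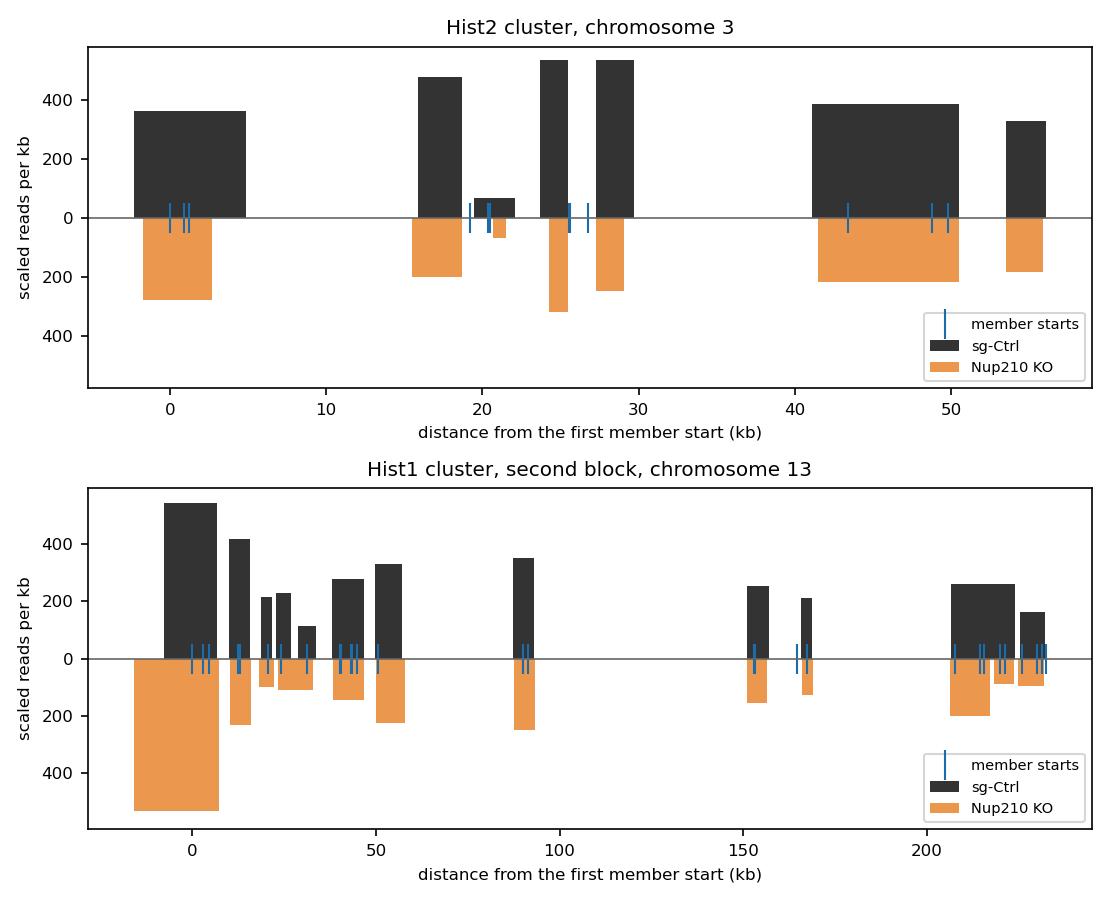
H3K4me3 peaks of the Hist2 cluster (top) and of the second block of Hist1 (bottom) by distance from the first member start in kb, with bars as wide as the peak and as high as its scaled reads per kb in sg-Ctrl (upward, black) and Nup210 KO (downward, orange), and blue ticks at member starts. In Hist2 the starts of Hist2h3c1 and Hist2h3c2 fall between peaks, and in Hist1 the first KO peak reaches farther to the left than that of sg-Ctrl.

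In Hist1 the median ratio was -0.73, a ratio of 0.605, and 15 of 16 regions were below 0. The blocks had like medians, -0.69 over 5 regions and -0.73 over 11. Of the 16 regions, 11 were at least 1.5-fold lower (68.8%, against 27.5% of all regions). The region over Hist1h2ad, Hist1h2ae, Hist1h2bf, Hist1h2bg and Hist1h3d, which holds H2A, H2B and H3 starts within 8.8 kb, was the lowest, with 2587 sg-Ctrl and 1664 KO reads and a ratio of -0.98 (-1.07 to -0.89). The region over Hist1h2ag, Hist1h2ah, Hist1h2bj, Hist1h2bk and Hist1h4i held 3387 and 2405 reads, with a ratio of -0.84 (-0.92 to -0.76). The widest in sg-Ctrl, 17.6 kb over the linker histone gene Hist1h1c with Hist1h2ab, Hist1h2bb, Hist1h3b and Hist1h3c, was 1 sg-Ctrl peak of 4816 reads and 2 KO peaks of 2975 and 638 reads, with a ratio of -0.76 (-0.82 to -0.70). The H4 gene Hist1h4d (-0.43) and the pair Hist1h1e and Hist1h2be (-0.49) were closer to the median of all regions.

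At the upper end, the region over Hist1h2ai, Hist1h2bl, Hist1h2bm and Hist1h3h held 6163 and 6546 reads. Its ratio was -0.26 (-0.31 to -0.21), just above the median of all regions. Inside it, sg-Ctrl had a peak of 3250 reads and 766 scaled reads per kb that ended before the first of these starts, and a second of 2913 reads and 280 per kb over them, which were 1 peak in KO.

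The region over Hist1h4h, Hist1h2af and Hist1h3g was the one with more signal in KO, where 16646 reads stood against 8255 of sg-Ctrl. Its ratio was 0.67 (0.63 to 0.70), and 96.8% of all regions were below it. Its density was alike, 540 and 532 scaled reads per kb, a log2 ratio of -0.02, and its covered length was 14.4 kb and 23.2 kb. The KO peak reached 8200 bp beyond that of sg-Ctrl on ground outside every gene start window. A separate sg-Ctrl peak there would not be in the list, and the part of this in the ratio was not tested. This region held 12.3% of the histone reads in sg-Ctrl and 26.4% in KO. The log2 ratio of the summed histone reads was -0.43 with it, against -0.42 for all regions, and -0.68 (-0.70 to -0.67) without it.

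**Figure D4:**
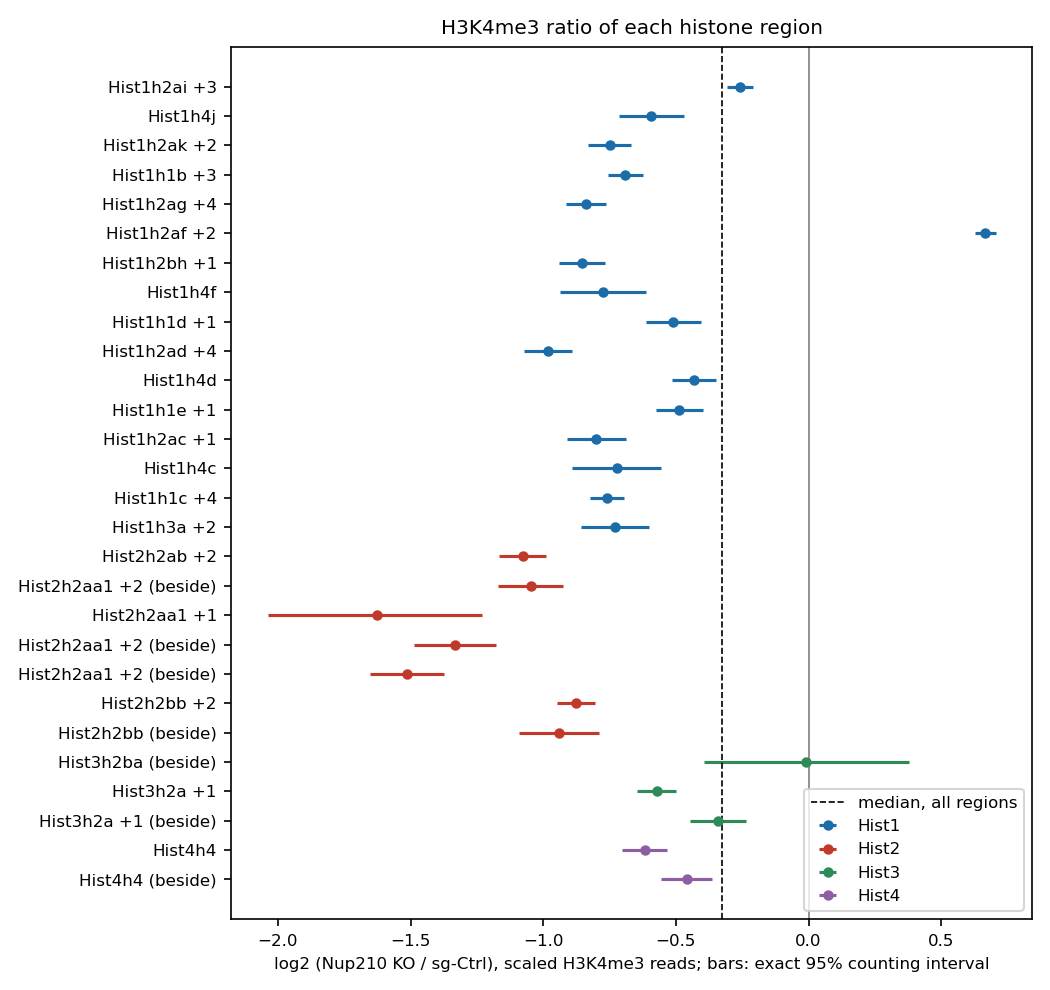
Log2 KO over sg-Ctrl ratio of scaled H3K4me3 reads for each of the 28 histone regions, in the order of their positions and coloured by cluster, with exact 95% counting intervals (no replicates), the median of all regions (-0.32) dashed and 0 as a solid line. Hist2 holds the lowest values, down to -1.63, and a lone Hist1 region lies to the right of 0, at 0.67.

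Hist3 and Hist4, with medians of -0.34 and -0.54, lay nearer to the genome than Hist2. The region over Hist3h2a and Hist3h2bb-ps held 3257 sg-Ctrl and 2784 KO reads, a ratio of -0.57 (-0.65 to -0.50). The region next to it, shared with Trim17, held 1474 and 1477 reads and had a ratio of -0.34 (-0.45 to -0.24). The narrow peak beside Hist3h2ba, 0.4 kb in both lists, held 103 and 130 reads and no IgG reads, with a ratio of -0.01 (-0.39 to 0.38). Over Hist4h4, an H4 gene next to the variant gene H2afj, the reads were 2463 and 2040 and the ratio was -0.62 (-0.70 to -0.53), and in the second region, beside it, they were 1863 and 1721 and the ratio was -0.46 (-0.55 to -0.36). Of the other regions, 45.1% on chromosome 11 and 42.0% on chromosome 6 were at or below the medians of Hist3 and Hist4.

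Hist1 thus had a higher median than the smaller clusters, by 0.18 (-0.73 against -0.91), with no test possible. The order rested on the duplicated Hist2 genes. Without them the smaller clusters had a median of -0.59 over 8 regions, and the difference was -0.13. In reads per kb the difference was 0.03.

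By histone family, the regions over the starts had medians of -0.60 for H1 (4 regions), -0.76 for H2A (11), -0.78 for H2B (12), -0.73 for H3 (9) and -0.73 for H4 (10). Most of these regions are shared between families, so the families are not independent readings. The range was -0.76 to -0.49 for H1, -1.08 to -0.26 for H2B and -1.63 to 0.67 for H2A.

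Other genes near the clusters gave a local reference, in a window of 500 kb chosen after the values were seen. Inside the spans of Hist1 stood 4 other regions. Of these, Zfp184 (0.08), Prss16 (0.27) and the iron regulator Hfe (0.39) were above 0 and Mir1983 (-1.01) was below. The regions inside the spans are counted among the neighbours too. Around the second block of Hist1 the 4 neighbouring regions, Hfe among them, had ratios of -0.20 to 0.39 and a median of -0.05. None was as low as the median of the 11 histone regions there. Around the first block the median of 9 neighbours, Zfp184, Prss16 and Mir1983 among them, was -0.46. Around Hist2 that of 27 was -0.39, and around Hist3 that of 12 was -0.25. Around Hist4 all 3 neighbours, at -0.99 to -0.66, were lower than both Hist4 regions.

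Genes that act with the histone genes were examined as lists. Of 11 histone variant genes, 9 had an H3K4me3 region, with a median of -0.46. All 9 were below 0, as were 77.2% of all regions, and none was 2-fold lower (7.9% of all regions). H2afx, whose transcript carries the stem-loop, had 1788 and 2139 reads and a ratio of -0.09 (-0.18 to 0.00), and the centromeric Cenpa -0.69. H2afj shares its regions with Hist4h4. Of 17 genes for transcription and 3' end processing of histone mRNA, all had a region, with a median of -0.38, 6 at least 1.5-fold lower (35.3%, against 27.5% of all regions) and 1 at least 2-fold lower (5.88%, against 7.9%). Srrt, of the cap-binding machinery, was the lowest at -1.01, Slbp was -0.74, Casp8ap2 (FLASH) was -0.87, Npat was -0.27, and Lsm11 of the U7 snRNP was the highest at 0.10. Of 15 histone chaperone genes the median was -0.39, from Rbbp4 at -1.26 to Chaf1b, a subunit of CAF-1, at 0.27. Among the low genes of these lists, Casp8ap2, Lsm10 (-0.73), Ncbp1 (-0.92), Rbbp4 and Nasp (-0.97) lie on chromosome 4. The median of all regions of that chromosome was -0.82, close to the ratio of Casp8ap2. Slbp and Srrt lie on chromosome 5. The part of the chromosome in these ratios was not tested. The medians of these lists lay closer to the -0.32 of all regions than did those of Hist1 and Hist2.

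**Figure D5:**
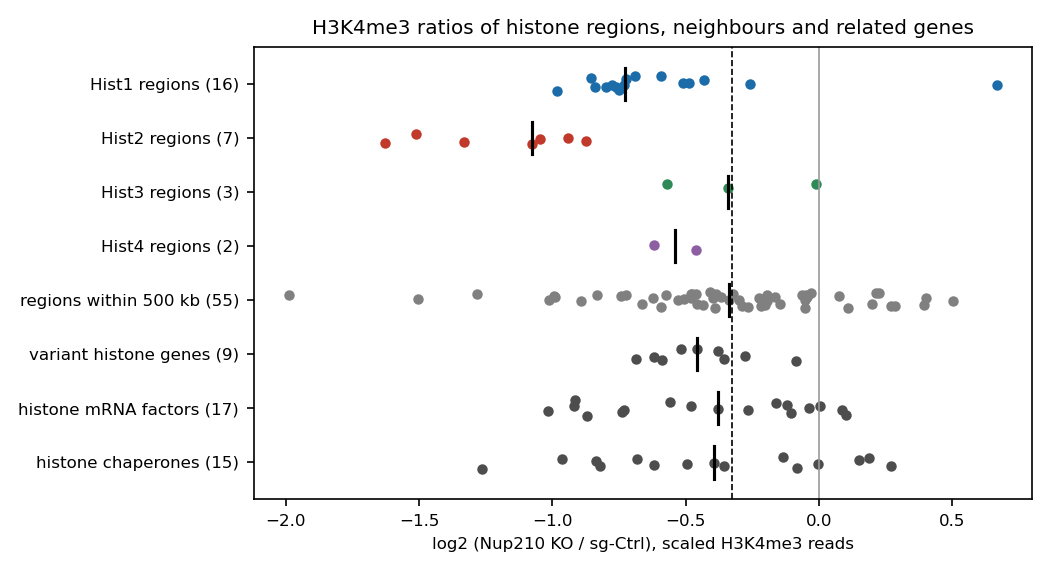
Log2 KO over sg-Ctrl ratios of scaled H3K4me3 reads (1 point per region or gene, vertical bars for medians, counts in brackets, vertical position within a row random) for the histone clusters, the other regions within 500 kb of them, and 3 gene lists, with the median of all regions (-0.32) dashed. The bars of Hist1 (-0.73) and Hist2 (-1.08) lie left of those of the variant genes (-0.46), mRNA factors (-0.38) and chaperones (-0.39).

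NUP210 and NPC peaks were not listed for any member (0 of 60 in each list), whereas 33.9% of all genes of the lists had a NUP210 peak and 30.8% an NPC peak. These lists hold peaks that meet gene bodies, and 54 of the members are at most 2 kb long. Of the 2137 other genes that short, 43.5% had a NUP210 peak and 34.6% an NPC peak. Genes without H3K4me3 entered the lists only through a NUP210, NPC or H3K27me3 peak, which raises all these shares. Every member had H3K4me3, and the share among genes with H3K4me3 alone is not given here. The nearest listed NUP210 peak lay 91.9 kb from Hist2, at Otud7b, 19.6 kb from Hist4h4, at Wbp11, and 157 and 339 kb from the blocks of Hist1. Near Hist3 none was within 2220 kb. The NUP210 peak at Olfr1535, nearest to Hist1, had a fold of 0.83 over IgG, the one at Wbp11 had a fold of 1.06 over IgG and an FDR of 0.197, and that at Otud7b a fold of 2.36. The NPC antibody also had a peak at each of these genes, 101 kb from Hist2 and 23.6 kb from Hist4h4.

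H3K27me3 was listed for 1 member in sg-Ctrl and for 0 in KO cells, against 26.8% and 27.6% of all genes. Among the other genes of at most 2 kb the shares were 38.0% and 45.5%. Genes that entered the lists without H3K4me3 raise these shares too. The member was Hist3h2ba, whose sg-Ctrl peak of 12 kb held 268 reads (237 to 302) and 91 IgG reads, a fold of 3.48. The H3K27me3 library of KO cells was 3.16 times as deep as that of sg-Ctrl, and its nearest listed peak, at Btnl10, ended 22.9 kb before Hist3h2ba. H3K4me3 in the window of this gene was the narrow peak of 103 and 130 reads given above and, in the KO list alone, also the 4.8 kb peak of 2784 reads over Hist3h2a and Hist3h2bb-ps.

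Polycomb domains bordered the Hist1 blocks without a listed peak over a member. Before the first block, H3K27me3 over the olfactory receptor genes Olfr1359, Olfr1360 and Olfr1361 ended 8.14 kb from the first member start in sg-Ctrl and 9.14 kb in KO. Behind the second block, H3K27me3 began 2.33 kb past the start of Hist1h1a, the last member, in sg-Ctrl. This was a peak of 30 kb over Trim38 with 29.1 scaled reads per kb. In KO it began 3.33 kb past that start, as a single peak of 163 kb with 33.9 scaled reads per kb. The KO peak lay over Trim38 and the phosphate transporter genes Slc17a1 to Slc17a4. The KO library was 3.16 times as deep, and the part of depth in the peak width was not tested. Only the nearest peak on each side is given, so sg-Ctrl peaks over the Slc17a genes are not described. Within the first block, between member groups, Pom121l2 and Mir1983 were listed with H3K27me3 in both conditions. Prss16, a protease gene at which H3K4me3 had a ratio of 0.27, was listed in sg-Ctrl alone, with 452 reads and a fold of 6.76.

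The lists as a whole gave these checks of the samples. The epithelial markers Epcam, Krt8, Krt18 and Cdh1 all had H3K4me3 regions, the leukocyte (0 of 3) and endothelial (0 of 2) markers had none, and of the fibroblast markers Pdgfra had one (1 of 3), with ratios of -1.11 to -0.30 for the epithelial genes and -0.18 for Pdgfra. Over the start of Nup210 the reads were 885 and 913, a ratio of -0.30, which does not check the knockout. Reads in H3K4me3 peaks were 26236314 for sg-Ctrl and 24873356 for KO, and the KO library was 1.27 times as deep.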

How the data were processed

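The 6 deposited peak lists, each from 1 library of 4T1 cells, were the source of all values. The authors called peaks with SICER against IgG (200 bp windows for H3K4me3, 1000 bp otherwise). The submitters' processing notes name Trimmomatic, Bowtie2, Picard and STAR and the builds mm9, mm10 and NCBIM37, without their roles. For each peak the authors deposited raw counts of ChIP and IgG reads, the fold (a ratio to IgG scaled by library size) and a p-value and FDR. The lists hold only peaks that meet a gene, within 4 kb of its start for H3K4me3. Not analysed here were 4 RNA-seq samples, and the 3 IgG samples entered as the background reads of each peak.

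Repeated entries were collapsed to distinct peaks, and peaks of both H3K4me3 lists that overlapped by 1 bp or more were joined. The ratio of library sizes was recovered from counts and folds, and ChIP reads were divided by it. Ratios have exact binomial and reads exact Poisson 95% intervals, which cover counting error only. Total library depth is unknown. With 1 library per condition there is no test. Members and lists were chosen with earlier results of these data known. Named were the genes of the 3 lowest and 3 highest regions with at least 100 reads, of all regions of the smaller clusters and of the widest and densest region of each cluster, every gene or region in 1 H3K4me3 list alone, members with a H3K27me3, NUP210 or NPC peak, and the extremes of the other lists. The other genes given as examples were chosen after their values were seen. Starts or ends of 50 of 60 members lay within 50 bp of GRCm38.p6, whose RefSeq promoters were used. Transcripts came from GENCODE by gene name. The joining of peaks was tested on simulated data with peak edges moved by at most 200 bp. Only regions with 1 peak in each list were checked. Merged or split peaks and large changes of width were not covered. Software was matplotlib 3.10.9, scipy 1.17.1, pandas 2.3.3 and numpy 2.4.6 under Python 3.11.15.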

Additional observations from a re-analysis of the deposited data

How the results depend on the processing

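No paired analysis was possible because each condition has 1 library. The median log2 ratio of the histone regions was below 0 under all 13 alternatives (-0.79 to -0.32), and it moved to -0.32 when scaled by the reads of shared regions, to -0.39 with no scaling and to -0.44 relative to the chromosome median. The count of histone regions at least 2-fold lower, 5, became 2 when scaled by shared reads, 2 with no scaling, 3 in reads per kb, 8 by the authors' fold over IgG, 13 with 1 value per gene (of 60 genes), 2 with regions over a member's start alone, 2 relative to the chromosome median and 1 without the duplicated Hist2 genes. The share of all regions at this limit, 7.9% in the main setting, moved with the setting too. It was 9.68% in reads per kb. For no scaling, shared reads, the fold over IgG, 1 value per gene and chromosome medians the share is not given. Those counts, 8 and 13 among them, therefore cannot be set against all regions. By the fold over IgG the median of all regions was -0.48, against -0.32 in the main setting. Relative to the median of all regions, 3 of the 28 (10.7%) were at least 2-fold lower, against 2.63% of all. The difference of Hist1 from the smaller clusters, 0.18, was reversed to -0.13 without the duplicated Hist2 genes. That difference was 0.03 to 0.22 under the other 12 alternatives. Peak widths and counts of listed genes kept the values given under their alternatives, apart from 59 genes in both H3K4me3 lists without the testis histones. The alternatives without the Hist1h4h region, with starts alone, with chromosome medians and without the duplicated genes were chosen after seeing the data. The cause of these shifts was not tested. Genes in one region share its reads, and peaks away from gene starts could not be listed.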
